A study of Mus musculus with 57 samples.

Results

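The MEIS and PBX proteins are homeodomain factors of the TALE class that bind DNA together with HOX proteins. Of the genes that encode them, Meis1, Meis2, Pbx2, Pbx3 and Pknox1 were followed here, 5 of the 18165 genes that had a probe set of their own on the array. All 15 of their probe sets that name a single gene were used, out of 34842 such probe sets, and all 15 passed the filter on low signal. The genes were taken as a gene family.

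HOX proteins bind short DNA sites with little selectivity on their own. PBX proteins contact HOX proteins and add a second half-site, whereas MEIS and PKNOX proteins bind PBX proteins and can carry them into the nucleus, so that a HOX, a PBX and a MEIS protein can act as a complex on a gene. Hoxa9 with Meis1 is a well known pair in myeloid leukemia, Pbx3 is another partner of Hoxa9 in leukemia, and Meis1 is normally made in hematopoietic stem and progenitor cells and falls as these mature.

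The study measured RNA of mouse blood-forming tissue on 57 arrays in 14 groups. CA10 mice carry the vav-CALM-AF10 transgene and NHD13 mice the vav-NUP98-HOXD13 transgene, so in both the vav promoter drives a leukemia fusion gene across blood cells. Leukemic spleen was taken when the mice showed signs of leukemia (6 CA10 and 6 NHD13 arrays), and tissue from transgenic mice without such signs is called healthy here. Healthy CA10 tissue was spleen (5 arrays), lineage-negative marrow, which is marrow depleted of mature blood cells (3), whole marrow (3) and thymus (4). Healthy NHD13 tissue was lineage-negative marrow, whole marrow and thymus (3 arrays each). Wild-type mice gave spleen (2), lineage-negative marrow (3), thymus (7) and whole marrow (6), and 3 more wild-type whole marrows carry the label C57B6, while the other labels give no strain. Wild-type tissue came from littermates of the same age where possible. Whether the arrays of a group come from different mice is not stated in the labels, and the p-values cover the spread among these arrays alone.

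Values are log2 signals, on which a difference of 1 is a doubling, and each probe set has its own scale, so levels are compared between groups and not between genes. A probe set was called changed when its Benjamini-Hochberg adjusted p from limma, over 28025 probe sets, was under 0.05. Some arrays stood apart. A set of 10 arrays had a narrower spread of values than the rest: wild-type thymus 6, the third lineage-negative array of each genotype, wild-type whole marrows 4 to 6 and every CA10 whole marrow. Wild-type thymus 2 and CA10 thymus 3 had the lowest thymic epithelium marker level of their groups (5.31 and 6.53, against 7.29 to 8.24 in their other arrays, as the mean of 6 genes). T cell markers were lowest there too, at 8.78 and 9.32 as the mean of 5 genes, against 10.42 to 11.48. The 3′ minus 5′ Gapdh signal, a sign of RNA quality, was 2.95 in NHD13 lineage-negative marrow 3, 2.09 in healthy CA10 spleen 1 and 1.36 in C57B6 whole marrow 2, and at most 0.85 elsewhere.

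Meis1 lies on chromosome 11 at 18880428 to 19019651 in the mouse build GRCm38.p6 of RefSeq, and Pbx3 on chromosome 2 at 34171457 to 34372045. Meis2 is on chromosome 2 at 115861264 to 116067537. Pbx2 lies on chromosome 17 at 34592259 to 34597400 and Pknox1 on the same chromosome at 31564722 to 31607693. RefSeq promoter windows were at hand for Meis1, Meis2 and Pbx2, and their 250 bases before the start listed in that table were searched on both strands for a MEIS half-site (TGACAG), a PBX and HOX site (TGATTNAT) and an ETS site (CCGGAAGT). The only match in the 3 windows was an ETS site in that of Meis1, on the opposite strand, whose end lies 5 bases before the listed start. It is shown as the only match, at chr11:19018970-19018999 on the minus strand, with the match in capitals.
Meis1: ctgttatggccaccactACTTCCGGgttct
The ETS site is found in 2.9% of 32851 mouse windows of this length, the MEIS half-site in 15.9% and the PBX and HOX site in 2.8%. The windows of Meis1 and Meis2 lie within the span of the gene and not before its outer start, and a match says only that these letters are present.

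Pbx3, the PBX member with the largest differences, was high in NHD13 tissue and low elsewhere. On probe set 1447640_s_at, which had the highest mean of the Pbx3 probe sets, NHD13 leukemic spleen had a lowest level of 10.31, a median of 10.91 and a highest of 11.43. CA10 leukemic spleen ranged from 3.60 over a median of 6.74 to 8.16, and wild-type spleen was at 7.64 and 7.69. Every NHD13 leukemic array thus lay above every CA10 leukemic and wild-type spleen array. On probe set 1421193_a_at the same groups had lowest, median and highest levels of 9.42, 10.05 and 10.26 in NHD13 and of 5.42, 6.16 and 6.79 in CA10, with wild-type spleen at 6.91 and 6.54. The NHD13 arrays were again separate from the others, as groups were for 41.3% of all probe sets in NHD13 leukemic against wild-type spleen. The CA10 median lay below both wild-type spleens on either probe set.

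**Figure D1:**
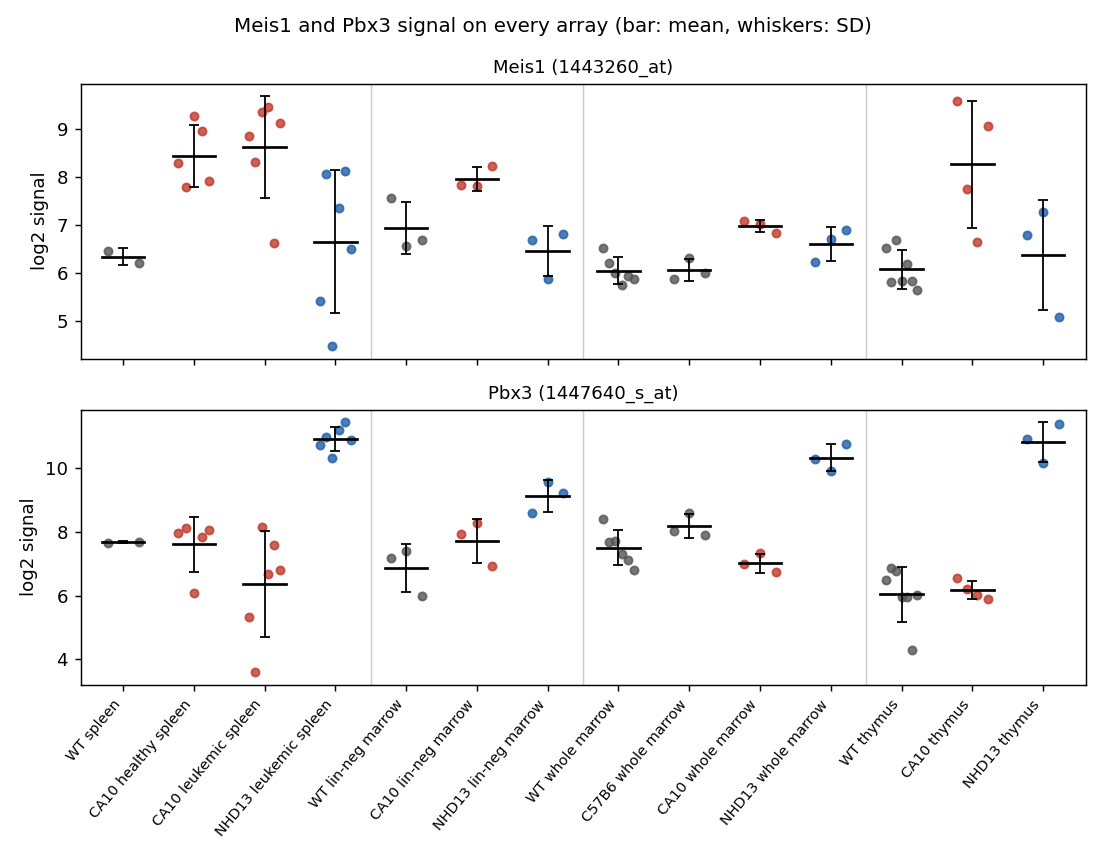
Log2 signal of Meis1 (1443260_at) and Pbx3 (1447640_s_at) on each array, by group, with one point per array, a bar at the group mean and whiskers for the SD. The 4 NHD13 groups have the highest Pbx3 means, from 9.11 to 10.91, and the 5 CA10 groups have the highest Meis1 means, from 6.98 to 8.62.

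In healthy NHD13 tissue Pbx3 was at 8.57, 9.54 and 9.22 in lineage-negative marrow, at 10.29, 9.91 and 10.76 in whole marrow and at 10.91, 10.15 and 11.37 in thymus (1447640_s_at). Wild-type lineage-negative marrow was at 7.19, 7.41 and 6.00. Wild-type whole marrow ran from 6.80 over a median of 7.49 to 8.40, and wild-type thymus from 4.29 over 6.01 to 6.86. In each of the 3 tissues all NHD13 arrays lay above all wild-type arrays, while 6.46%, 6.14% and 6.02% of all probe sets had separate groups in these comparisons. Healthy CA10 tissue stayed in the wild-type range in thymus (6.55, 6.20, 6.01 and 5.9). In whole marrow it was at 6.98, 7.32 and 6.73, with 1 array below the wild-type lowest of 6.80. It reached 8.26 in lineage-negative marrow (7.92, 8.26 and 6.94), above the wild-type arrays there in 2 of 3. Over all tissues, the lowest of the 15 NHD13 arrays on 1421193_a_at, at 7.13, lay above the highest of the 42 other arrays, at 7.04. On 1447640_s_at 1 of the 42 others, a C57B6 whole marrow at 8.60, lay above the lowest NHD13 array at 8.57. The share of all probe sets split this way over all tissues is not given here.

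The differences were tested in 1 limma model per tissue. In NHD13 leukemic against wild-type spleen 4 of the 15 member probe sets were called, all higher, in a comparison where 31.2% of all probe sets were called, 18.6% as higher. Pbx3 rose by 3.25 ± 0.30 (SE, adjusted p = 2.83e-06) on 1421193_a_at and by 3.24 ± 0.81 (adjusted p = 0.00605) on 1447640_s_at. Wild-type spleen has only 2 arrays, and without the first or the second of them the change on 1447640_s_at was 3.22 or 3.27 with an adjusted p of 0.0583 or 0.0592. In NHD13 whole marrow 2 of the 15 were called, against 0.814% of all probe sets, and both were Pbx3: 2.86 ± 0.24 (adjusted p = 6.74e-06) and 2.82 ± 0.30 (adjusted p = 7.28e-05). In NHD13 thymus, where 0.589% of all were called, the 2 member probe sets called were again those of Pbx3, at 3.73 ± 0.22 (adjusted p = 2.08e-06) and 4.76 ± 0.45 (adjusted p = 1.72e-04). Without the 2 thymuses low in thymic epithelium and T cell markers, Pbx2 (1418893_at) was also called there, as lower (−0.93 ± 0.19, adjusted p = 0.0187, limma). In NHD13 lineage-negative marrow no member was called by limma, against 0.0214% of all probe sets, and 2 had an unadjusted p under 0.05, both of Pbx3, at 1.21 ± 0.44 and 2.24 ± 0.47.

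The NHD13 effect on Pbx3 differed in size between tissues on 1421193_a_at, being 1.21 in lineage-negative marrow, 2.86 in whole marrow and 3.73 in thymus (limma's F test over all arrays, adjusted p = 0.00179, where 0.564% of all probe sets were called). On 1447640_s_at it was 2.24, 2.82 and 4.76, and the difference was not called (adjusted p = 0.201). The smallest effect was in lineage-negative marrow on both probe sets. Without NHD13 lineage-negative marrow 3, which stood apart in Gapdh, the effect there was 1.56 ± 0.40 and 2.18 ± 0.50. Averaged over the 3 tissues, a contrast added after the data were seen, Pbx3 was higher in NHD13 by 2.60 ± 0.17 (adjusted p = 7.40e-16) and 3.27 ± 0.33 (adjusted p = 1.54e-09), with 0.674% of all probe sets called. Both stayed called when any 1 of 25 arrays was left out.

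By order of group means on 1447640_s_at, Pbx3 ran from NHD13 leukemic spleen (10.91 ± 0.38, SD) and NHD13 thymus (10.81 ± 0.62) to NHD13 whole marrow (10.32 ± 0.43), neighbours whose gaps were within their spread. NHD13 lineage-negative marrow followed at 9.11 ± 0.49, a step of 1.21 that was beyond it. C57B6 whole marrow came next at 8.18 ± 0.38. From there the remaining 9 groups went down to wild-type thymus at 6.04 ± 0.87 with no neighbouring gap beyond the spread. In wild-type tissue Pbx3 was lower in thymus than in whole marrow, by −0.62 ± 0.22 (adjusted p = 0.0188) and −1.46 ± 0.43 (adjusted p = 0.00505, limma).

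Meis1, the MEIS protein that forms complexes with Hoxa9, was high in most CA10 tissue, with overlap. On 1443260_at 16 of the 21 CA10 arrays lay above the highest wild-type array (7.56) and on 1450992_a_at 14 did (7.47), while 12 and 13 of the 36 other arrays lay above the lowest CA10 array (6.63 and 6.38). How such counts run over all probe sets is not given here. On probe set 1443260_at CA10 leukemic spleen ranged from 6.63 over a median of 8.98 to 9.46, while NHD13 leukemic spleen ranged from 4.48 over 6.92 to 8.13. Healthy CA10 spleen was at 8.29, 7.79, 9.26, 8.95 and 7.91, and wild-type spleen at 6.46 and 6.21. All CA10 spleens, leukemic or healthy, were thus above both wild-type spleens, and a single leukemic CA10 array, the fifth, was as low as 6.63. The NHD13 leukemias overlapped CA10 and wild type alike, with 3 arrays at 7.35 or more and another at 4.48.

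On probe set 1450992_a_at CA10 leukemic spleen ran from 8.21 over 8.58 to 9.47 and NHD13 leukemic spleen from 3.97 over 7.60 to 8.89. Healthy CA10 spleen was at 8.48, 6.92, 8.37, 8.21 and 7.03, and wild-type spleen at 5.47 and 5.95. The fifth CA10 leukemia was not low here, at 8.31. The third Meis1 probe set, 1459423_at, passed the 40th percentile of all signals on only 6 of 57 arrays and was called in no comparison under the main settings.

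In the other tissues Meis1 (1443260_at) was at 7.82, 7.80 and 8.23 in CA10 lineage-negative marrow and at 7.56, 6.57 and 6.68 in wild type. In whole marrow it was at 7.09, 7.01 and 6.84 in CA10, against 5.76 to 6.52 with a median of 5.98 in wild type. In thymus it was at 9.57, 7.75, 6.65 and 9.05 in CA10, against 5.65 to 6.68 with a median of 5.83. The groups were separate in both marrows and overlapped in thymus through CA10 thymus 3, at 6.65; on 1450992_a_at they were separate in all 3 tissues. Separate groups were found for 4.16% of all probe sets in lineage-negative marrow, 5.48% in whole marrow and 0.375% in thymus, and for 6.68% in healthy CA10 spleen. NHD13 arrays were at 6.68, 5.87 and 6.82 in lineage-negative marrow, 6.22, 6.71 and 6.90 in whole marrow and 6.78, 7.27 and 5.09 in thymus, which overlapped wild type in each tissue.

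Tested tissue by tissue under the main settings, Meis1 was not called against wild type in any CA10 comparison. In CA10 leukemic against wild-type spleen 0 of 15 member probe sets were called by limma, against 7.08% of all, and 3 had an unadjusted p under 0.05, 2 of them of Meis1. The Meis1 changes were 2.28 ± 0.83 (adjusted p = 0.0974) and 3.06 ± 0.91 (adjusted p = 0.0506), and the groups did not overlap on either, as was so for 32% of all probe sets. Without the fifth CA10 leukemia the change on 1443260_at was 2.68, with an adjusted p of 0.0427. Other limma settings called 1450992_a_at here: a 60th percentile filter (adjusted p = 0.0433), quantile normalization (0.0422) and the Gapdh covariate (0.0407). It was also called with only the groups compared (adjusted p = 0.00506) and with all 57 arrays in the model (0.00914). The last setting called 1443260_at too (adjusted p = 0.0316). In healthy CA10 spleen, lineage-negative marrow, whole marrow and thymus 0 member probe sets were called, and so were 0% of all probe sets. Unadjusted p-values were under 0.05 for 2, 2, 2 and 3 of the 15, and in each tissue 2 of these were Meis1 probe sets.

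The Meis1 changes in healthy CA10 tissue were 2.10 ± 0.85 and 2.09 ± 0.94 in spleen, 1.01 ± 0.36 and 1.27 ± 0.51 in lineage-negative marrow, 0.93 ± 0.19 and 1.34 ± 0.33 in whole marrow and 2.18 ± 0.50 and 2.18 ± 0.48 in thymus. All 8 were positive. Without healthy CA10 spleen 1, high in the Gapdh measure, the spleen changes were 2.14 and 1.92. A difference between tissues was not called by limma's F test (unadjusted p = 0.25 and 0.638, adjusted p = 1 for both), which called 0% of all probe sets. Averaged over the 4 tissues, again a contrast added after the data were seen, Meis1 rose by 1.55 ± 0.30 and 1.72 ± 0.33 (adjusted p = 0.0291 for both). Only 4 of 28025 probe sets, 0.0143%, were called in this average: the 2 of Meis1, 1 of Hoxa9 (3.53 ± 0.44, adjusted p = 4.27e-06) and 1 of Hoxa5 (1.55 ± 0.26, adjusted p = 0.00299), another HOXA gene, named here after its values were seen.

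This average rests on many of its arrays. With 1 of the 33 arrays left out in turn, the first Meis1 probe set was called 19 times and the second 17 times, with changes of 1.45 to 1.69 and 1.63 to 1.80. For the first, the call was lost without any 1 of the CA10 arrays of lineage-negative marrow and whole marrow, CA10 spleens 3 and 4, CA10 thymuses 1 and 4, wild-type lineage-negative marrows 2 and 3, or either wild-type spleen, and the adjusted p ran from 0.00337 to 0.211. For the second it was lost without any 1 of CA10 lineage-negative marrows 1 and 2, CA10 spleens 1, 3 and 4, CA10 thymuses 1 and 4, the CA10 whole marrows, wild-type lineage-negative marrows 2 and 3, either wild-type spleen or wild-type whole marrows 5 and 6, and the adjusted p ran from 0.0143 to 0.318. With the array set as a block the changes were 1.56 (adjusted p = 0.0334) and 1.81 (adjusted p = 0.00898). In NHD13 the same average over 3 tissues was 0.13 on both probe sets (adjusted p = 0.954 and 0.959).

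In whole marrow all CA10 arrays belong to the narrow set, and against the 3 wild-type arrays of that set Meis1 was higher by 1.12 ± 0.19 (adjusted p = 0.0954) and 1.85 ± 0.28 (adjusted p = 0.0555). In thymus, without the 2 arrays low in thymic epithelium markers, the changes were 2.67 ± 0.47 and 2.53 ± 0.52 (adjusted p = 0.206 and 0.754). Each was larger than with those arrays in place, and none was called. With C57B6 whole marrows as controls 1443260_at was called in CA10 whole marrow (0.92 ± 0.22, adjusted p = 0.00712, limma), and 1450992_a_at was not. With the replicate block both were called in CA10 whole marrow (0.74 and 0.83, adjusted p = 0.0131 and 0.0197, limma), as was 1459423_at (0.50, adjusted p = 0.0158). The block leaves the narrow-set wild-type marrows out of the contrast, and no C57B6 marrow is in that set. Genotype and array set thus cannot be told apart in the calls with the block or with C57B6 controls.

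By order of group means on 1443260_at, Meis1 was highest in CA10 leukemic spleen (8.62 ± 1.06, SD), healthy CA10 spleen (8.44 ± 0.64), CA10 thymus (8.25 ± 1.32) and CA10 lineage-negative marrow (7.95 ± 0.24). These 4 did not differ from their neighbours beyond the spread. A step of 0.97, beyond the spread, separated them from CA10 whole marrow at 6.98 ± 0.13. The other 9 groups lay between 6.05 and 6.94 with all neighbouring gaps within it. On 1450992_a_at the same 4 groups came first, at 8.77, 8.22, 8.15 and 7.80, but CA10 whole marrow (6.53) ranked below wild-type lineage-negative marrow (6.95) and NHD13 leukemic spleen (6.90). In wild-type tissue lineage-negative marrow had more Meis1 than whole marrow on 1450992_a_at (1.76 ± 0.62, adjusted p = 0.032), a call that was lost without any 1 of the 3 lineage-negative arrays (1.51 to 1.92) and without whole marrow 5 or 6. On 1443260_at the difference was 0.89 ± 0.56 and was not called (adjusted p = 0.27). In that tissue comparison 2 of 15 member probe sets were called, against 24% of all.

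In bulk tissue a lower share of cells that make a transcript and less of it per cell cannot be told apart. Markers of some cell types moved with the spleen groups, while the ranges of megakaryocyte markers overlapped in all of these groups. B cell markers, the mean of 5 genes, were at 11.71 to 11.97 in wild-type, 8.96 to 12 in healthy CA10, 5.68 to 9.80 in CA10 leukemic and 5.03 to 6.47 in NHD13 leukemic spleen. Primary granule genes of immature neutrophils, the mean of 4 genes, were at 7.89 to 8.09, 6.87 to 12.55, 11.21 to 13.07 and 8.56 to 12.83 in the same order. Stem and progenitor markers, the mean of 6 genes, ran from 7.23 to 7.28, from 6.99 to 8.40, from 7.58 to 8.61 and from 7.22 to 8.11. Megakaryocyte markers, the mean of 6 genes, reached from 9.66 to 9.84, from 8.84 to 10.12, from 5.89 to 10.52 and from 7.81 to 11.19. T cell markers, the mean of 5 genes, lay from 8.36 to 8.89, from 7.37 to 8.74, from 6.72 to 7.85 and from 5.73 to 6.59. Beside the Pbx3 differences in healthy NHD13 tissue, B cell markers were at 5.70 to 6.26 in NHD13 whole marrow (wild type 7.42 to 8.06) and at 5.22 to 5.97 in NHD13 thymus (wild type 6.61 to 9.60). T cell markers in NHD13 thymus were at 8.80 to 10.04 (wild type 8.78 to 11.48), and primary granule genes in NHD13 lineage-negative marrow at 6.46 to 7.28 (wild type 9.39 to 10.77). Groups overlapped in some of these and not in others, and the part of cell makeup in the member differences was not tested.

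**Figure D2:**
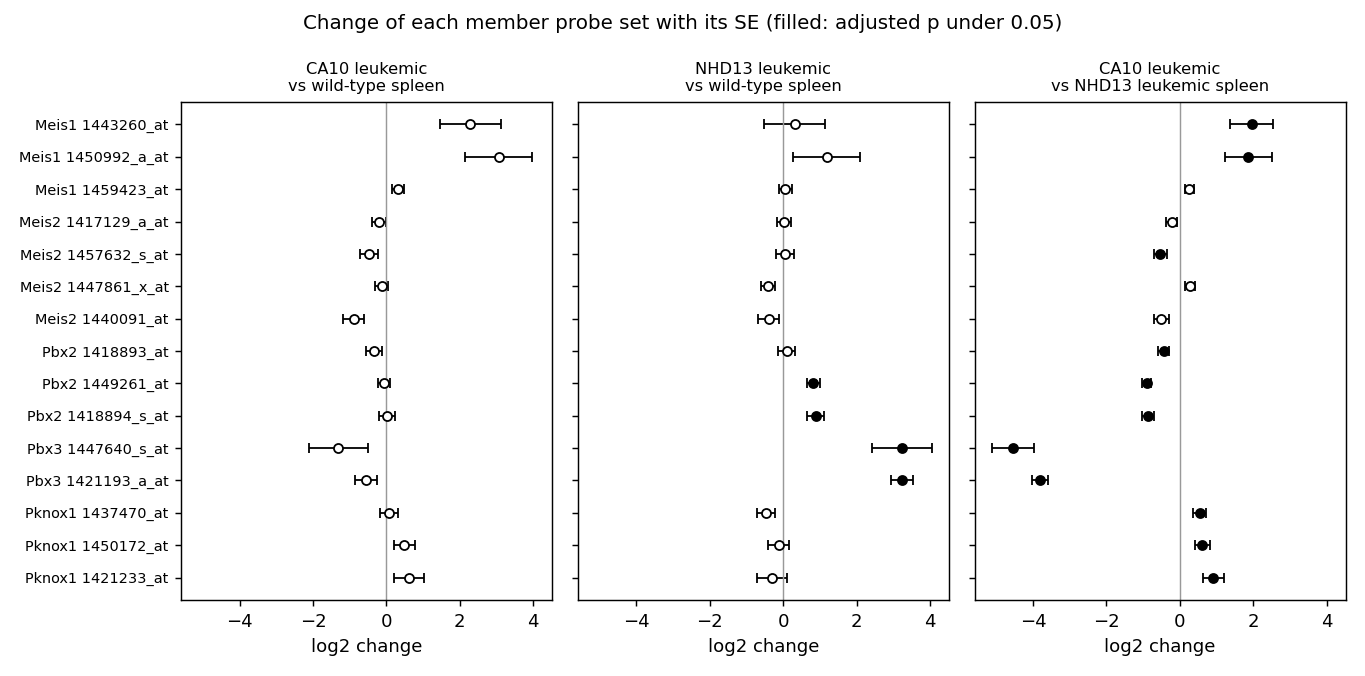
Log2 change with its standard error for each of the 15 member probe sets in the 3 spleen comparisons of the leukemias, from the limma model, with filled points for an adjusted p under 0.05. Pbx3 is at 3.24 and 3.25 in NHD13 against wild type and at −4.55 and −3.80 in CA10 against NHD13, the longest distances from 0 in those panels.

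The leukemias of the 2 transgenes were compared with each other. In CA10 against NHD13 leukemic spleen 11 of the 15 member probe sets were called, 5 higher and 6 lower in CA10, against 27.4% of all probe sets (12.6% higher and 14.9% lower). The groups did not overlap for 6 of them, against 12.6% of all. Pbx3 was lower in CA10, at −4.55 ± 0.57 on the log2 scale (23.5-fold, adjusted p = 2.43e-05, limma) and −3.80 ± 0.22 (14-fold, adjusted p = 1.49e-09), and both stayed called without any 1 array. The Meis1 difference, CA10 minus NHD13, was 1.97 ± 0.59 (3.91-fold, adjusted p = 0.0193) and 1.87 ± 0.65 (3.66-fold, adjusted p = 0.0391), with overlapping groups. The first of these stayed called without any 1 array (1.53 to 2.36). The second was called in 5 of 12 such fits, losing the call without CA10 array 1, 3, 4 or 6 or NHD13 array 1, 3 or 6, with changes of 1.29 to 2.27 and adjusted p up to 0.0858.

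The same contrast was made in healthy tissue. In whole marrow 28.3% of all probe sets were called and 2 of the 15 member probe sets, both of Pbx3, at −2.99 ± 0.28 (adjusted p = 7.49e-05) and −3.31 ± 0.34 (adjusted p = 1.98e-04). With the array set as a block, since all CA10 and no NHD13 whole marrows are in the narrow set, Pbx3 was at −2.56 and −2.45, still called (adjusted p = 0.00258 and 0.00684). In thymus 0.132% of all and again the 2 Pbx3 probe sets were called, at −3.80 ± 0.24 and −4.65 ± 0.49. In lineage-negative marrow 0 members were called by limma, as were 0% of all, with 4 of 15 at an unadjusted p under 0.05. These 4 were the Pbx3 probe sets at −1.15 ± 0.44 and −1.40 ± 0.47 and the Meis1 probe sets at 1.49 ± 0.36 and 2.08 ± 0.51, and the groups did not overlap on any of them, as was so for 4.75% of all probe sets. Averaged over the 3 tissues the Meis1 difference was 1.25 ± 0.36 (adjusted p = 0.0634) and 1.46 ± 0.41 (adjusted p = 0.0527), and it was not called. Pbx3 was at −2.65 ± 0.18 and −3.12 ± 0.36 and was called (adjusted p = 1.20e-14 and 7.89e-08), with 1.28% of all probe sets called.

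The use of Meis1 against Pbx3 was put into a single value, the log2 Meis1 signal minus the log2 Pbx3 signal of an array (1443260_at and 1447640_s_at). The zero of this scale has no meaning, since the probe sets have different scales, and only differences between groups do. In CA10 leukemic spleen it was 2.26 ± 1.96 (SD, n = 6, from −0.93 to 4.71) and in NHD13 leukemic spleen −4.26 ± 1.14 (n = 6, from −5.83 to −2.90). All CA10 leukemias lay above all NHD13 leukemias. The difference was 6.52 (exact two-sided permutation test, p = 0.00216, the smallest that 6 against 6 arrays can give), and the other pairs of probe sets gave 4.06 to 6.42 with the same p. The leukemias were already separate on Pbx3 alone, so this p does not show that Meis1 had a part in the difference. The pairs at 4.06 and 4.81 used Meis1 1459423_at, which passed the 40th percentile on only 6 of 57 arrays. In healthy tissue the means were 0.83 in CA10 spleen, 0.25 in CA10 lineage-negative marrow, −0.03 in CA10 whole marrow and 2.09 in CA10 thymus. The NHD13 means were −2.65, −3.71 and −4.43 in lineage-negative marrow, whole marrow and thymus. Wild-type means were −1.33 in spleen, 0.07 in lineage-negative marrow, −1.45 in whole marrow and 0.03 in thymus, and C57B6 whole marrow was at −2.12.

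**Figure D3:**
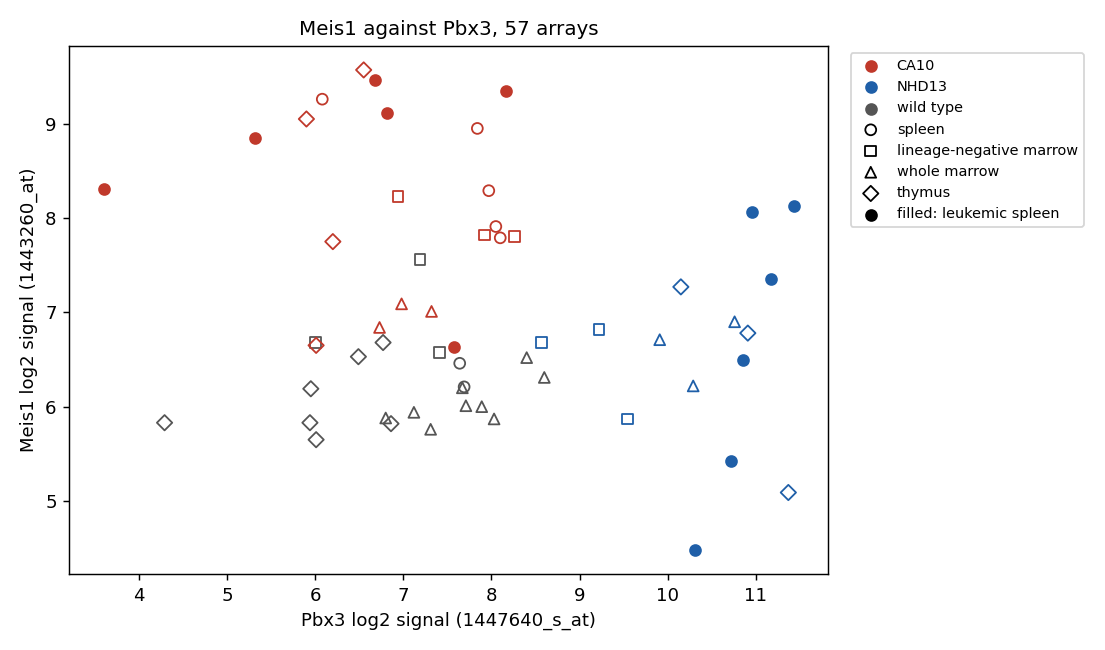
Log2 signal of Meis1 (1443260_at) against that of Pbx3 (1447640_s_at) on 57 arrays, with colour for the genotype, shape for the tissue and filled points for leukemic spleen. CA10 arrays spread upward, to 9.57 for Meis1, and NHD13 arrays spread to the right, to 11.43 for Pbx3, with Meis1 up to 8.13.

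Within the NHD13 leukemias Meis1 and Pbx3 varied together, with the highest Pbx3 arrays (10.96, 11.17 and 11.43) also having the highest Meis1 (8.06, 7.35 and 8.13) and the lowest Pbx3 array (10.31) the lowest Meis1 (4.48). Pearson's r was 0.90 (exact permutation p = 0.0111, adjusted 0.2) and Spearman's rho 0.94 (exact permutation p = 0.0167, adjusted 0.3) over 6 arrays. Without the 2 arrays farthest from the median r was 0.74, and with 1 array left out it ran from 0.78, without NHD13 array 3, to 0.99. That array also had low primary granule markers (8.56) and low monocyte markers (7.90). Within the CA10 leukemias r was 0.00 (exact permutation p = 0.997), and it was 0.92 without the fifth array, so it rests on that array.

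Hoxa9, the HOX partner, was high in both leukemias on probe set 1455626_at. It was at 8.19 to 11.29 with a median of 9.09 in CA10 and at 7.47 to 10.16 with a median of 9.39 in NHD13 leukemic spleen, against 4.27 and 3.96 in wild-type spleen. The 2 leukemias overlapped, and differed by 0.11 ± 0.50 (adjusted p = 0.886, limma). On the other Hoxa9 probe set, 1421579_at, the changes against wild-type spleen were 0.90 ± 0.41 in CA10 and 0.71 ± 0.41 in NHD13, and neither was called (adjusted p = 0.187 and 0.196). Relations to Hoxa9 were computed array by array for each of the 5 members, and for Meis1 with Pbx3, in CA10 leukemic spleen, NHD13 leukemic spleen and all 11 CA10 spleens. None of the 18 relations had an adjusted p under 0.05 by either coefficient.

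Meis1 and Hoxa9 correlated at r = 0.47 in the CA10 leukemias (exact permutation p = 0.276, rho 0.77 with exact permutation p = 0.103) and at r = 0.59 in the NHD13 leukemias (exact permutation p = 0.214, rho 0.37 with exact permutation p = 0.497). Without the 2 arrays farthest from the median they were 0.82 and 0.70. Over all 11 CA10 spleens r was 0.44 (permutation p = 0.179), rho was 0.60 (permutation p = 0.056) and r without 2 arrays was 0.25. Pbx3 and Hoxa9 correlated at r = 0.73 in the CA10 leukemias (exact permutation p = 0.121, rho 0.66 with exact permutation p = 0.175), which fell to −0.18 without 2 arrays, and at 0.49 in the NHD13 leukemias (exact permutation p = 0.312, rho 0.43 with exact permutation p = 0.419). The other members gave r of −0.52 for Pbx2, 0.77 for Meis2 and 0.22 for Pknox1 with Hoxa9 in the CA10 leukemias, where the Meis2 value turned to −0.52 without 2 arrays. The CA10 array with the highest Hoxa9, the third at 11.29, had Meis1 at 9.35 and Pbx3 at 8.16, the highest Pbx3 of that group.

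**Figure D4:**
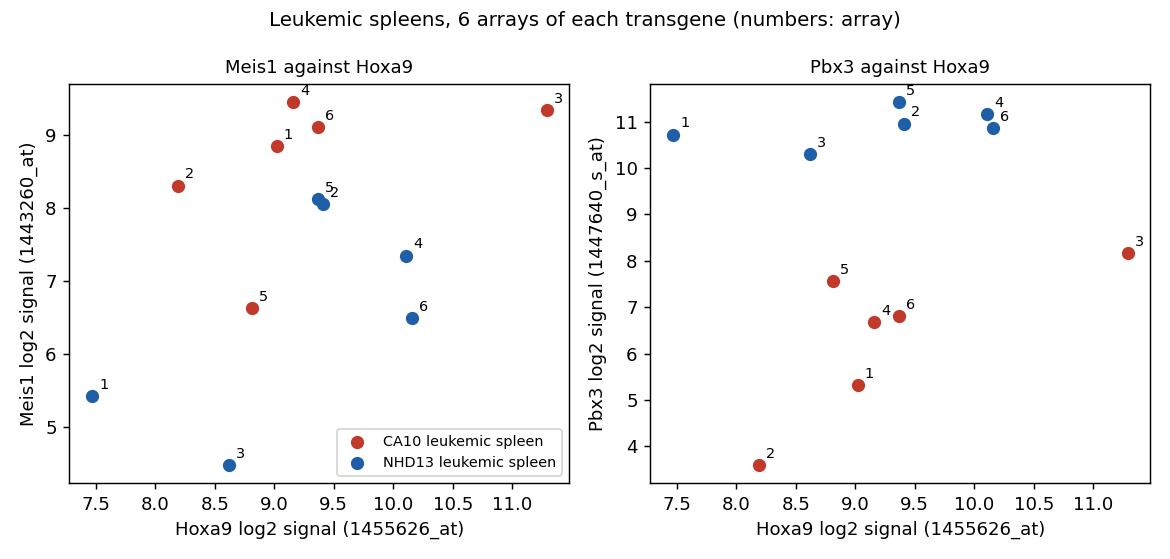
Log2 signal of Meis1 and of Pbx3 against Hoxa9 (1455626_at) in the 12 leukemic spleens, 1 panel per gene, with one point and its array number per array. CA10 leukemias (Hoxa9 from 8.19 to 11.29) and NHD13 leukemias (7.47 to 10.16) overlap in Hoxa9 but are apart in Pbx3.

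In the healthy thymuses Hoxa9 varied widely while Pbx3 kept to its genotype. NHD13 thymuses had Hoxa9 at 6.78, 8.35 and 11.66 and Pbx3 at 10.91, 10.15 and 11.37. CA10 thymuses had Hoxa9 at 11.16, 9.18, 5.78 and 11.16, with Meis1 at 9.57, 7.75, 6.65 and 9.05. The CA10 thymuses with the highest Hoxa9 were those with the highest Meis1, and the one lowest in both was CA10 thymus 3, which stood apart in thymic epithelium markers. With 4 and 3 arrays no correlation was computed.

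Pbx2, a PBX protein made in many tissues, was higher in NHD13 than in CA10 leukemic spleen on all 3 probe sets. On 1449261_at the NHD13 leukemias were at 8.15 to 8.73 with a median of 8.48 and the CA10 leukemias at 7.40 to 7.96 with a median of 7.52, with wild-type spleen at 7.70 and 7.60. The CA10 minus NHD13 difference was −0.90 ± 0.12 (adjusted p = 3.19e-05), and it was −0.87 ± 0.16 (adjusted p = 7.78e-04) on 1418894_s_at and −0.44 ± 0.16 (adjusted p = 0.046) on 1418893_at. The groups did not overlap on any of the 3, although the last was called in only 2 of 12 fits with 1 array left out. Its call held only without NHD13 array 1 or 3, with changes of −0.48 to −0.37. Against wild-type spleen Pbx2 was higher in NHD13 by 0.83 ± 0.17 (adjusted p = 0.00143) and 0.89 ± 0.23 (adjusted p = 0.00683), the latter not called without wild-type spleen 1 (0.72, adjusted p = 0.118), and at 0.10 ± 0.22 on 1418893_at. With all 57 arrays in the limma model the change on 1418894_s_at was not called either (adjusted p = 0.098). Averaged over the 3 healthy NHD13 tissues, the changes against wild type were −0.46 (1418893_at), −0.33 (1418894_s_at) and 0.05 (1449261_at). None of these was called (adjusted p = 0.268, 0.654 and 0.959, limma).

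Pbx2 also differed between wild-type marrows. C57B6 whole marrow was at 9.06, 9.52 and 9.04 on 1449261_at, against 8.35, 8.21, 7.86, 6.93, 6.90 and 7.68 in the other wild-type whole marrows, and the groups were separate, as they were for 20.9% of all probe sets. The changes were 1.55 ± 0.28 (adjusted p = 0.00151) and 1.72 ± 0.33 (adjusted p = 0.0024, 1418894_s_at), with 3 of 15 member probe sets called against 19.6% of all. Without C57B6 whole marrow 2, high in the Gapdh measure, both were 1.40 and still called (adjusted p = 0.0125 and 0.0211), and the third, of Meis2 (1457632_s_at), was at 0.54 and not called (adjusted p = 0.088). When this C57B6 difference, found for each probe set, was subtracted from the change in NHD13 leukemic spleen, the Pbx2 changes against wild-type spleen turned to −0.73 (adjusted p = 0.282) and −0.83 (adjusted p = 0.378). Pbx3 kept its direction and its call there, at 3.19 and 2.57 (adjusted p = 1.19e-06 and 0.0493). Of the other wild-type whole marrows, 4 to 6 (6.93, 6.90 and 7.68 on 1449261_at) are of the narrow set, which holds no C57B6 marrow and no spleen. The subtracted difference thus mixes strain and array set, and their parts were not tested. The labels give no strain for the transgenic mice, and strain and genotype cannot be told apart in the leukemias.

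Pknox1, a relative of the MEIS proteins that also binds PBX, was higher in CA10 than in NHD13 leukemic spleen. On 1421233_at the CA10 leukemias were at 6.90 to 7.56 with a median of 7.42 and the NHD13 leukemias at 6.26 to 6.78 with a median of 6.34, and the groups were separate. The differences were 0.91 ± 0.29 (adjusted p = 0.0255), 0.54 ± 0.18 (adjusted p = 0.0301, 1437470_at) and 0.61 ± 0.21 (adjusted p = 0.0366, 1450172_at). The last 2 were called in 4 of 12 fits with 1 array left out and the first in 10, where it lost the call without CA10 array 3 (adjusted p = 0.0509) or NHD13 array 4 (adjusted p = 0.0507). On 1437470_at the calls held without CA10 array 5 or NHD13 array 1, 3 or 5 and on 1450172_at without CA10 array 5 or NHD13 array 2, 5 or 6. With the C57B6 marrow difference subtracted the 3 differences were 0.29, 0.88 and 0.51 and none was called (adjusted p = 0.867, 0.291 and 0.705). With all 57 arrays in the model none was called either (adjusted p = 0.0844, 0.161 and 0.231), and with the replicate block the last 2 were not (adjusted p = 0.0531 and 0.055). Under the main settings Pknox1 was called against wild type in no comparison. Quantile normalization called 1437470_at lower in NHD13 leukemic spleen (−0.73, adjusted p = 0.0365, limma). The replicate block called 1421233_at and 1450172_at lower in CA10 whole marrow (−1.24 and −1.07, adjusted p = 0.0399 and 0.0039, limma). That contrast sets narrow-set CA10 marrows against wild-type marrows outside the set, so genotype and array set cannot be told apart in it. The fifth CA10 leukemia had the lowest Pknox1 of its group on all 3 probe sets.

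Meis2, the MEIS gene with a tissue pattern, was high in thymus of every genotype. On 1417129_a_at the 14 thymuses ran from 5.83 to 8.42, and the other groups from 4.17 to 5.36, so that no array of another tissue reached the lowest thymus. In CA10 thymus it was at 7.01, 6.81, 7.49 and 7.78, in NHD13 thymus at 7.54, 8.42 and 6.36, and in wild-type thymus at 5.83 to 7.33 with a median of 6.95. The thymus groups overlapped and did not differ by the test (0.41 ± 0.36 for CA10 and 0.57 ± 0.40 for NHD13 against wild type, adjusted p = 0.958 and 0.668, limma). In wild-type thymus against whole marrow 7 of 15 member probe sets were called, against 47.3% of all, among them all 4 of Meis2, at 2.22 ± 0.22 (adjusted p = 1.13e-11), 2.67 ± 0.21 (adjusted p = 2.84e-14), 1.57 ± 0.25 (adjusted p = 1.98e-06) and 0.48 ± 0.19 (adjusted p = 0.0296). The last was lost without wild-type thymus 3 or 6 or whole marrow 1, 2 or 3, with adjusted p up to 0.144 and changes of 0.32 to 0.65. Of the 7 wild-type thymuses 7, 7, 5 and 5 lay above the 40th percentile on these probe sets, and of the 6 whole marrows 0, 0, 0 and 1. The Meis2 probe sets thus passed the filter largely through thymus, and their calls are no separate support for the thymus pattern.

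Outside thymus Meis2 was low, and its calls were small. Probe set 1457632_s_at lay above the 40th percentile of all signals on the 14 thymuses and on 1 other array, an NHD13 leukemic spleen, so the calls outside thymus are of low signals. On it CA10 leukemic spleen was at 3.66 to 4.42 with a median of 4.27 and NHD13 leukemic spleen at 4.29 to 4.91 with a median of 4.73, a difference of −0.53 ± 0.17 (adjusted p = 0.0297) with overlapping groups, 1 of the 11 calls between the leukemias. The call was lost without CA10 array 1 or 2 or NHD13 array 2 or 6 (adjusted p up to 0.0668). With the C57B6 marrow difference subtracted it was 0.02. Wild-type spleen (4.69 and 4.55) was above wild-type whole marrow on it by 0.94 ± 0.31 (adjusted p = 0.0416), the 1 member probe set called there, against 9.26% of all. That call was lost without either spleen or without whole marrow 1, 3 or 5, with changes of 0.84 to 1.01.

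**Figure D5:**
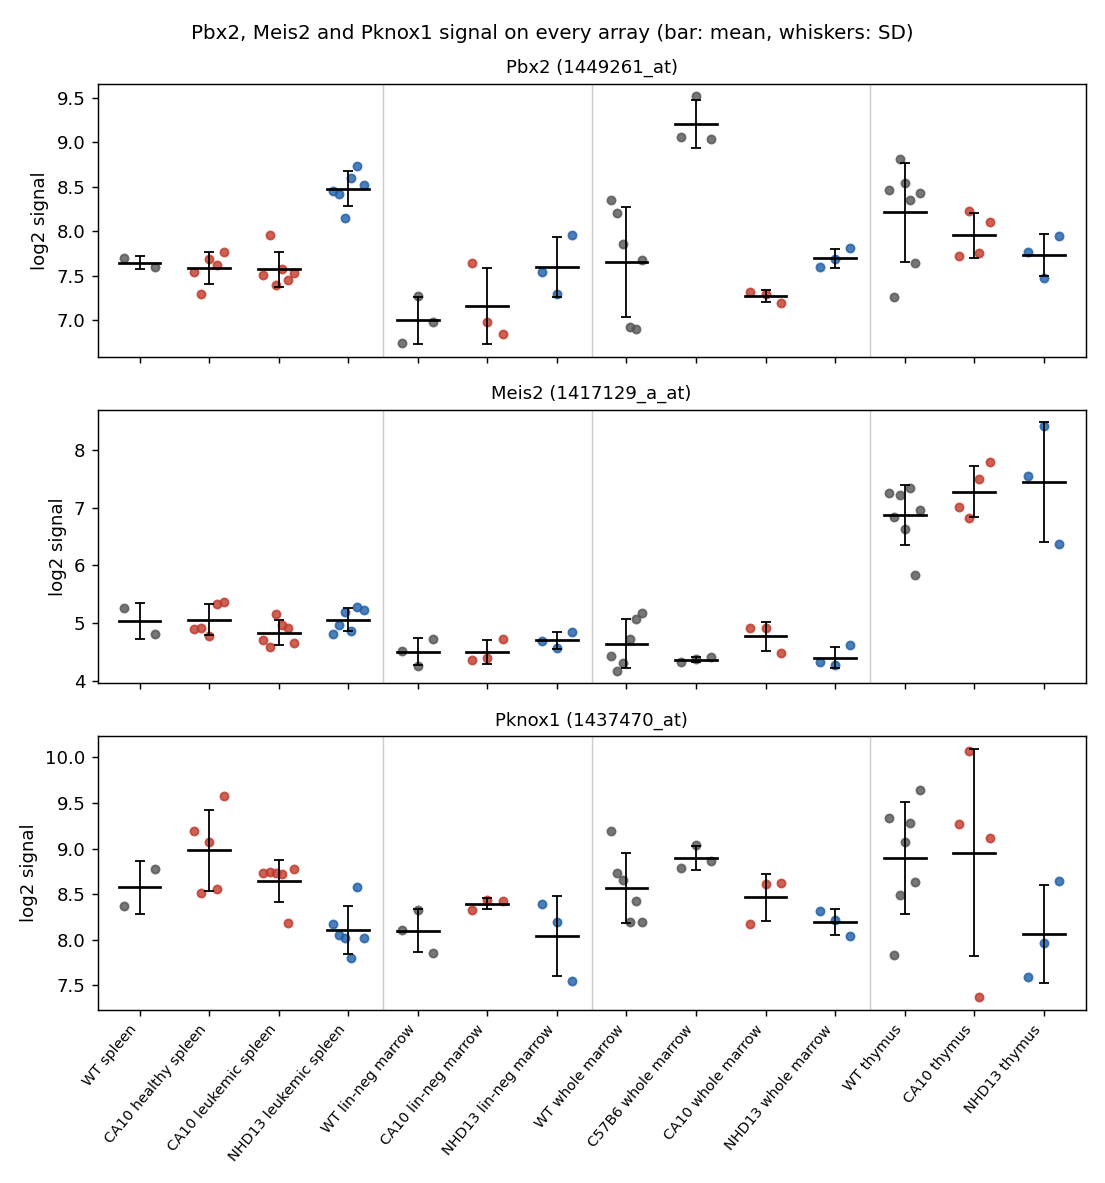
Log2 signal of Pbx2 (1449261_at), Meis2 (1417129_a_at) and Pknox1 (1437470_at) on each array, by group, with one point per array, a bar at the group mean and whiskers for the SD. Meis2 is above 5.36 in thymus and nowhere else, and Pbx2 is highest in the C57B6 whole marrows, from 9.04 to 9.52.

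In CA10 leukemic against healthy CA10 spleen 0 of 15 member probe sets were called by limma, against 6.26% of all, and 3 had an unadjusted p under 0.05. These were Pknox1 at 0.82 ± 0.30 (adjusted p = 0.111, 1421233_at) and Meis2 at −0.52 ± 0.21 (adjusted p = 0.147, 1440091_at) and −0.30 ± 0.13 (adjusted p = 0.183, 1447861_x_at). Meis1 was at 0.18 ± 0.61 and 0.97 ± 0.68 and Pbx3 at −0.15 ± 0.23 and −1.25 ± 0.60 there. Both Meis2 signals were low. No array of these groups lay above the 40th percentile on 1440091_at, and on 1447861_x_at only 2 of the 5 healthy spleens did.

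Other genes of the pathway were taken from fixed lists, with 1 probe set a gene, the one of highest mean signal. Of 5 further TALE genes (Meis3, Pbx4, Pknox2, Tgif1 and Tgif2) 1 fell in CA10 and 1 in NHD13 leukemic against wild-type spleen, where 7.49% (5.25% higher, 2.23% lower) and 31.1% (18.9% higher, 12.1% lower) of all genes were called. In both it was Meis3, a close relative of Meis1, at −0.73 ± 0.19 (adjusted p = 0.0278) and −0.98 ± 0.19 (adjusted p = 0.00101). None of the 5 was called between the leukemias by limma (25.4% of all genes were, 12% higher and 13.4% lower, and the smallest adjusted p among the 5 was 0.0691, of Pbx4, named after its values were seen). The medians of the 5 were −0.43 and −0.06 in the former comparisons, against 0.03 and 0.04 over all genes.

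Of the HOXA genes 8 of 11 were tested. Hoxa9 rose in CA10 leukemic spleen by 5.19 ± 0.70 (adjusted p = 0.00301), and Hoxa9 and Hoxa7, its neighbour in the cluster, rose in NHD13 leukemic spleen by 5.08 ± 0.70 (adjusted p = 9.66e-05) and 1.44 ± 0.32 (adjusted p = 0.00273). Between the leukemias Hoxa7 was lower in CA10 by 0.73 on the log2 scale (−0.73 ± 0.22, adjusted p = 0.0233) and Hoxa13 higher by 0.56 ± 0.12 (adjusted p = 0.00215). The other HOXA genes tested were not called in these comparisons.

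Of 15 genes linked to Hoxa9 and Meis1 in leukemia, 14 were tested. In CA10 leukemic against wild-type spleen 1 rose and 1 fell: Myb, a progenitor transcription factor (1.95 ± 0.53, adjusted p = 0.0373), and Trib2, a pseudokinase (−2.45 ± 0.60, adjusted p = 0.0241). In NHD13 4 rose and 2 fell, among them Myb (2.25 ± 0.53), Erg, an ETS factor of stem cells (2.00 ± 0.59, adjusted p = 0.0159), Pim1, a kinase (1.03 ± 0.32), and Trib2 (−2.74 ± 0.60). Of all genes 7.49% were called in CA10 and 31.1% in NHD13 leukemic against wild-type spleen. In CA10 leukemic against healthy CA10 spleen only Trib2 was called of the 14, at −1.75 ± 0.44 (adjusted p = 0.0287), where 6.04% of all genes were called, 1.83% as lower. Between the leukemias, where 25.4% of all genes were called (12% higher and 13.4% lower), 2 of the 14 were higher and 2 lower in CA10. Flt3, a receptor of progenitors, was higher by 2.00 ± 0.63 (adjusted p = 0.0251) and Bcl2, a survival gene, by 1.16 ± 0.41 (adjusted p = 0.0425), while Eya1, a transcriptional coactivator, was at −2.28 ± 0.45 (adjusted p = 0.0013) and Pim1 at −0.91 ± 0.22 (adjusted p = 0.00647). The medians of the 14 were 0.03 and 0.23 against wild type in CA10 and NHD13 and 0.29 between the leukemias, against 0.03, 0.04 and −0.02 over all genes.

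The genes most like Pbx3 over the 14 group means were Hoxc4 (r = 0.91), Dach2 (0.906), Hoxc8 (0.874), Liph (0.849) and Hoxc5 (0.843), each highest in an NHD13 group. Those most like Meis1 were Dmbt1 (r = 0.725), Mbnl1 (0.709), Cpa1 (0.694), Cpb1 (0.69) and Sycn (0.681). Of these, 4 were highest in healthy CA10 spleen, and Cpa1, Cpb1 and Sycn are genes of the exocrine pancreas. The likeness of Meis1 was weaker than that of Pbx3 throughout, and these are descriptions over group means that share arrays and tissue.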

How the data were processed

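Per the labels' protocols, Trizol was used for extraction and 100 ng of RNA for biotin labelling. The authors deposited log2 signals for 44943 probe sets on 57 arrays (2.58 to 14.65), computed by RMA per the submitters' notes. The RMA version is not given in the sources used here. Probe sets with 1 gene in the probe annotation were kept, 34842 of them, and 28025 lay above the 40th percentile of their array on at least 3 arrays.

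Groups followed the labels. limma 3.58.1 (R 4.3.3) fitted group means per tissue, or over all arrays for the F tests, tissue comparisons and averages. Errors beside changes are standard errors. The p-values were adjusted by Benjamini-Hochberg over all probe sets tested. The number of arrays limits the precision. The members and lists were chosen with earlier results of these data known.

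Tested on simulated data over 28025 probe sets, of which 100 per size were changed, the models called 74 percent of those with a log2 change of 1 in CA10 against NHD13 leukemic spleen, 47 percent in CA10 leukemic against wild-type spleen, 33 percent in thymus and 2 percent in lineage-negative marrow, both CA10 against wild type. For a change of 2 they called 92, 85, 84 and 35 percent. In the simulated data no other probe set was changed, and all changes were upward. Between the real leukemias 27.4% of all probe sets were called, so these percentages do not give the recovery where many probe sets change.

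No label ties equal replicate numbers to 1 mouse or day. Deviations of same-numbered arrays from their group means correlated in each pair of the lineage-negative comparisons (0.19 to 0.76) and not throughout in the others. All member probe sets and Hoxa9 were named, list genes by smallest adjusted p (up to 4 a list and leukemia comparison), and for Meis1 and Pbx3 the 5 genes most alike over group means (Pearson), among genes whose means spanned at least 1. Alternatives were filters, normalization, samples in the model, eBayes settings, blocks, a Gapdh covariate, left-out arrays, 1 value a gene and other controls.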

Additional observations from a re-analysis of the deposited data

Results flagged for a closer look

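Among 102 pairs of a probe set and a group of 4 to 10 arrays, 11 held 1 array far from the others of its group, and chance alone does so in about 1 in 20 groups. Pknox1 was low in the fifth CA10 leukemia on all 3 probe sets: 6.90 against 7.36 to 7.56 (1421233_at), 8.18 against 8.72 to 8.78 (1437470_at) and 6.98 against 7.64 to 7.73 (1450172_at). That array also had the lowest Meis1 of its group on 1443260_at. In CA10 leukemia 2 Pbx2 was at 7.96 (1449261_at), where the others were at 7.40 to 7.58.

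In healthy CA10 spleen 3 Pbx3 was at 6.08 against 7.84 to 8.10 (1447640_s_at) and Hoxa9 at 7.61 against 6.79 to 7.01 (1421579_at). In wild-type thymus 6, an array of the narrow set, Pbx3 was at 4.29 against 5.94 to 6.86 (1447640_s_at), Meis1 at 4.88 against 4.15 to 4.26 (1459423_at) and Hoxa9 at 7.34 against 5.75 to 6.42 (1421579_at). Meis2 was at 6.12 in CA10 thymus 1 against 5.30 to 5.41 (1440091_at) and at 3.19 in wild-type whole marrow 1 against 3.65 to 3.85 (1457632_s_at).

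The NHD13 effect on Pbx3 differed between lineage-negative marrow, whole marrow and thymus on 1421193_a_at (limma's F test, adjusted p = 0.00179).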

How the results depend on the processing

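The 4 alternatives on 3 doubted arrays and on averages over tissues were chosen after the data were seen. In CA10 leukemic against wild-type spleen, 0 member probe sets called became 1 with a filter at the 60th percentile, quantile normalization, the replicate block or the Gapdh covariate. The count was 2 with only the groups compared or all 57 arrays in the model, and 0 to 1 with an array left out. The replicate-block call (−1.09) and 1 of the 2 with only the groups compared (−0.89) were of Meis2 1440091_at, the rest of Meis1. No array of these groups lay above the 40th percentile on 1440091_at. In NHD13 leukemic against wild-type spleen 4 became 2 with the C57B6 marrow difference subtracted and 2 to 4 with an array left out, the low value without wild-type spleen 1; by the mean of a gene's probe sets 2 genes were called, against 1 with 1 probe set a gene. Quantile normalization added a Pknox1 call in NHD13 leukemic against wild-type spleen (1437470_at, −0.73, adjusted p = 0.0365, limma). All 57 arrays in the model dropped Pbx2 on 1418894_s_at there (adjusted p = 0.098). In CA10 leukemic against healthy spleen 0 became 1 with only the groups compared, again Meis2 1440091_at (−0.52), at low signal. Between the leukemias 11 became 6 with all 57 arrays or the replicate block, 2 with the C57B6 difference subtracted, and 6 to 10 with an array left out: 6 without CA10 array 1 or 3, and 7 without CA10 array 4 or 6 or NHD13 array 4 or 6.

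In whole marrow CA10 against wild type went from 0 to 11 with the replicate block, which by construction leaves wild-type arrays 4 to 6 out of the contrast. With C57B6 controls it went to 6. Both settings compare narrow-set CA10 arrays with wild-type arrays outside that set, so genotype and array set cannot be told apart in them. NHD13 against wild type went from 2 to 4 with C57B6 controls. CA10 against NHD13 whole marrow went from 2 to 4 with quantile normalization, 7 with only the groups compared and 5 with the replicate block, and C57B6 against other wild-type marrow from 0 genes called with 1 probe set a gene to 1, Pbx2, by the mean of probe sets. Wild-type lineage-negative against whole marrow went from 2 to 4 with the array set as a block and 0 to 3 with an array left out (0 without lineage-negative array 3, and 1 without lineage-negative array 1 or 2 or whole marrow 2 or 6). Wild-type spleen against whole marrow went from 1 to 2 with only the groups compared, 0 with the replicate block and 0 to 1 with an array left out. In NHD13 against wild-type thymus, leaving out the 2 doubted thymuses added a Pbx2 call (1418893_at, −0.93, adjusted p = 0.0187, limma). The causes were not tested.

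The C57B6 difference is taken against wild-type whole marrows partly of the narrow set, which holds no C57B6 marrow and no spleen. With the C57B6 difference subtracted, Meis1 between the leukemias stayed at 1.97 but lost its call (adjusted p = 0.12, limma). Under it, Pbx2 against wild-type spleen turned to −0.83 and −0.73, and between the leukemias Pbx2 turned to 0.02, 0.85 and 0.65 and Meis2 (1457632_s_at) to 0.02, none called. Leaving out an array gave 1.53 to 2.36 for Meis1, −4.91 to −4.00 for Pbx3 and 6.03 to 7.16 for Meis1 minus Pbx3. The replicate block changed no call in lineage-negative marrow, where same-numbered arrays correlated, more for numbers 2 and 3 than for number 1. No label pairs those arrays, and number 3 is the narrow-set array of each genotype. Elsewhere same-numbered arrays did not correlate throughout.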
